A study of Mus musculus with 6 samples.

Results

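The 41 genes described here load amino acids onto transfer RNAs or belong to the stress response that watches over that step. They were picked by symbol from a deposited table of 17027 gene symbols, and isoform values were summed per gene. The set holds 20 genes of cytosolic aminoacyl-tRNA synthetases, 9 genes of mitochondrial synthetases whose symbols end in 2, the scaffold proteins Aimp1 and Aimp2, and Atf4 with 9 stress response genes counted among its targets. All 41 of 41 were listed and all passed the filter on low values, a mean of at least 1 FPKM over the libraries, as did 14390 genes in all. The cells were retinal ganglion cells (RGCs), the neurons whose axons form the optic nerve, from wild type C57/6NCrl mice of 3 ages: E18 (embryonic day 18), P5 (postnatal day 5) and Adult (8 weeks). They had been captured on antibody to Thy1 after depletion of macrophages and, by the protocol given with the samples, of amacrine cells. No group carried a transgene or treatment. Each age has 2 libraries of polyA-selected RNA, both of whose values are printed below, and the labels do not say whether these came from separate animals, so each p-value reflects the spread of these samples alone, which may be technical.

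Aminoacyl-tRNA synthetases attach each amino acid to its own transfer RNA, the step that turns the genetic code into protein sequence. The cytosol and the mitochondria use largely separate enzymes, all encoded in the nucleus. When uncharged transfer RNA accumulates or proteins misfold, kinases phosphorylate the initiation factor eIF2, general translation slows, and the mRNA of the transcription factor Atf4 is translated more efficiently. Atf4 then switches on genes for amino acid synthesis, amino acid uptake and many cytosolic synthetases. Because Atf4 is controlled largely at translation, the level of its mRNA does not measure the protein. In neurons this pathway is known from axon injury, and mutations in several synthetase genes, Gars and Yars among them, cause inherited peripheral neuropathy.

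The Adult libraries did not hold the same mixture of transcripts as the younger ones. The summed level of 17 RGC markers was between 4741 and 5461 FPKM at E18 and P5, while Adult replicate 1 had 608 and Adult replicate 2 had 397. The defining RGC markers Rbpms and Pou4f1 were present at every age but fell to between 6.28 and 15.9 FPKM in Adult. The sum of 11 rod markers lay between 5.82 and 12.1 FPKM in the younger libraries and was 5696 and 695 FPKM in Adult, that of 9 amacrine markers rose from between 349 and 433 to 1447 and 1908 FPKM, and that of 9 markers of Müller glia and astrocytes from between 206 and 244 to 1512 and 1814 FPKM. C1qa, the macrophage marker that the table lists, stayed at or under 1.25 FPKM in all 6 libraries. Cell cycle and progenitor markers summed to 194 FPKM in E18 replicate 1 and 61.9 FPKM in E18 replicate 2. Their sums were 39.8 and 45.7 FPKM in the P5 libraries, then 72.0 and 67.9 in Adult, both above E18 replicate 2. The defining markers of that list, Mki67 and Top2a, went the other way. Mki67 had 4.19 and 0.173 FPKM in the E18 libraries, 0.0335 and 0.211 in those of P5, then 0.000102 in both of Adult. Top2a had 14.1 and 0.611 FPKM, then 0.451 and 1.40 FPKM, then 0.0004 FPKM in both Adult libraries. The part of these shifts in the results on Adult, and of the progenitor markers in those on E18, was not tested. In bulk RNA, fewer cells of a type and less RNA per cell cannot be told apart.

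The stretches of promoter printed next show where several members carry the letters TGATGNAA, the constant core of the C/EBP-ATF response element to which Atf4 binds with a partner protein. Windows of 300 bases, from 250 before to 50 after each start in RefSeq (build GRCm38.p6), were searched on both strands; 34 of 41 members had a window. No window was given for Cars, Hars, Lars, Nars, Rars, Vars and Wars. The letters were found in 5 of 13 cytosolic synthetases with a window, 0 of 9 mitochondrial synthetases, 0 of 2 scaffold proteins and 3 of the 10 genes of the Atf4 list, while 4.51% of all 27025 gene symbols with a window held them (3.97% of 32851 windows, since some genes have several). The cyclic AMP response element TGACGTCA, searched likewise, was in none of the members' windows and in 1.79% of all 32851 windows, so no match of one motif overlapped the other. The matches are descriptions of the letters and not measured binding. Each stretch reads 5′ to 3′ along the gene, with the match in capitals, and the number after the gene is the position of its first base relative to the RefSeq start.
Gars, -30, chr6:55037960-55037989, plus strand: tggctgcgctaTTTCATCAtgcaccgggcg
Tars, -15, chr15:11399655-11399684, minus strand: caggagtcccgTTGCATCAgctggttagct
Yars, 4, chr4:129189895-129189924, plus strand: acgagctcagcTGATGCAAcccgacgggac
Iars, 8, chr13:49682126-49682155, plus strand: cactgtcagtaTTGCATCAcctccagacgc
Asns, -23, chr6:7693214-7693243, minus strand: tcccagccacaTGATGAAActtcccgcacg
Chac1, -193, chr2:119351038-119351067, plus strand: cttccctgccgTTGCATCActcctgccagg
Trib3, 15, chr2:152344028-152344057, minus strand: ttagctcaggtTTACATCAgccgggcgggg
In the GRCm38 gene annotation the stretches of Asns, Tars, Yars, Iars and Trib3 overlap exons of Asns-201, Tars-201, Yars-201, Iars-201 and Trib3-201, and those of Gars and Chac1 overlap no annotated exon of their gene. The overlap is that of the whole stretch, not of the match. On the minus strand the annotated Tars begins at base 11399665 and Trib3 at base 152344032. In both, the match in capitals lies before that start.

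Cytosolic synthetase mRNA was abundant at every age. The 20 genes summed to 816 and 868 FPKM in the E18 libraries, 901 and 809 in those of P5, then 574 and 555 in Adult. Both Adult libraries lay below all 4 younger ones, and the E18 and P5 libraries overlapped. Sars, which charges serine transfer RNA, had the highest mean level at all 3 ages, and the lowest mean belonged to Iars (isoleucine) at E18, to Vars (valine) at P5 and to Lars (leucine) in Adult, where the libraries of Lars and Iars overlapped. Gars, which charges glycine transfer RNA, ranked second at E18 and P5 and the fifth in Adult, where its mean of 33.9 FPKM differed from that of Eprs, 33.9 FPKM, by less than the spread of its libraries.

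**Figure D1:**
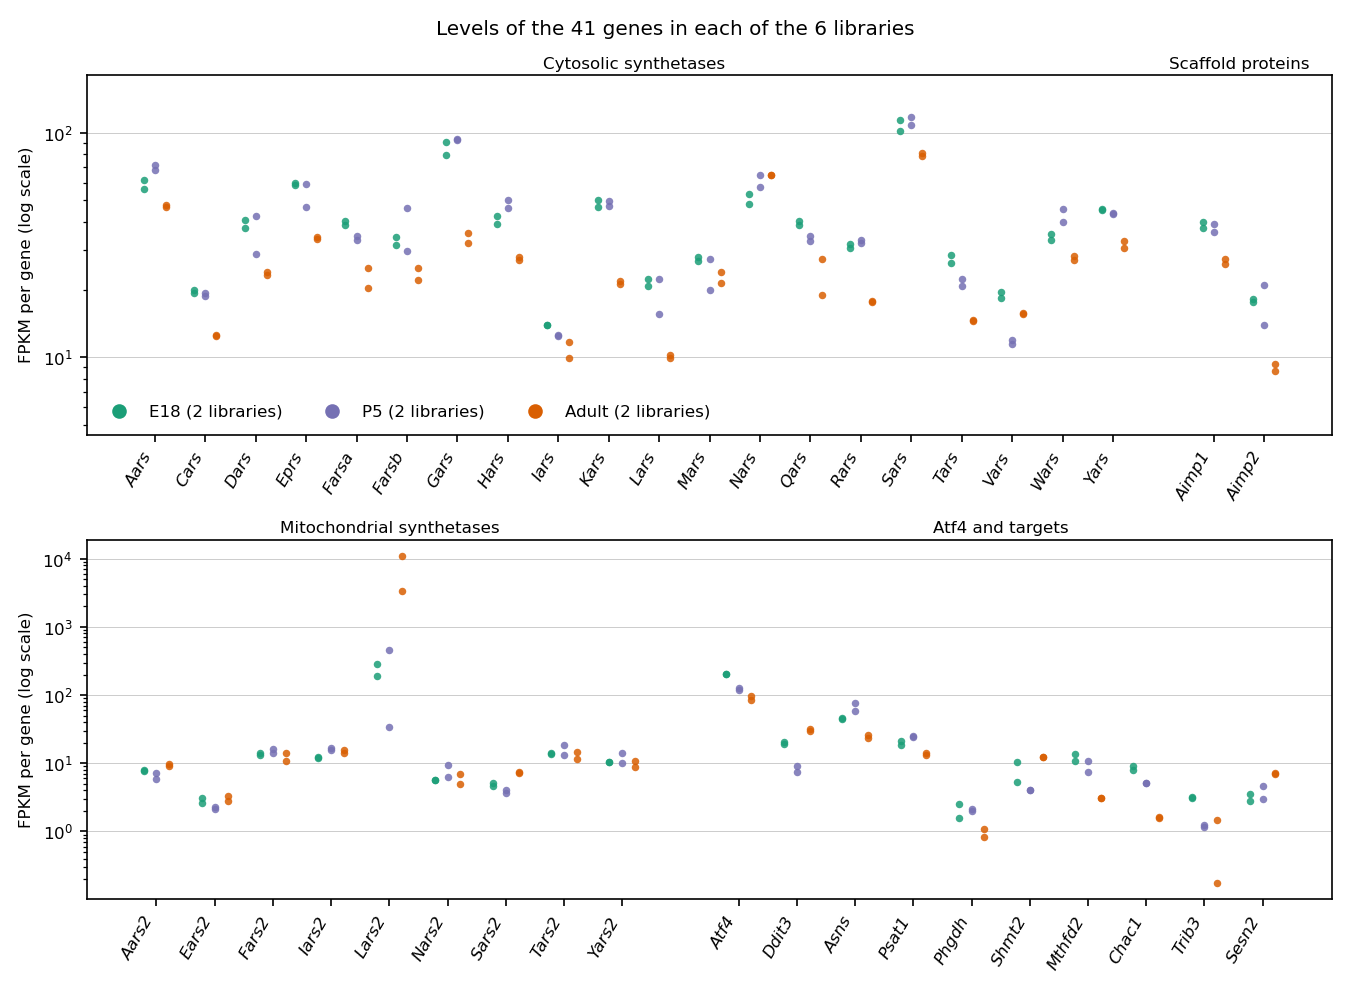
FPKM per gene on a log axis for the 41 genes in the 6 libraries, coloured by age (2 points per age). Adult points of most cytosolic synthetases lie below those of E18 and P5, the mitochondrial synthetases other than Lars2 lie between 2.16 and 18.4 FPKM, and Lars2 reaches 10877 FPKM in Adult replicate 1.

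Between P5 and Adult, the age step at which most members changed, 16 cytosolic synthetases fell, 1 rose and 3 were not called; 33.7% of all tested genes were called lower and 26.2% higher. The median log2 change of the 20 genes was -0.56, and that of all tested genes was -0.07. The called falls ran from -0.45 (Yars) to -1.44 (Gars) on the log2 scale. In 17 of the 20 both Adult libraries lay below both P5 libraries, as in 43.1% of all tested genes, and in 1 both lay above, as in 35.6%. Calls of Dars, Farsb and Qars were each lost in 5 of the 6 fits that left out a library.

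Gars (chr6:55038007-55079500) had 79.3 and 91.2 FPKM in the E18 libraries, 93.9 and 92.6 in those of P5, then 35.6 and 32.2 in Adult. Both P5 libraries lay slightly above those of E18, and both Adult libraries were far below all 4. The Adult mean was 2.75-fold below that of P5, a log2 change of -1.44 (95% interval -1.71 to -1.17, adjusted p = 0.000158 by limma). Kars (chr8:111993443-112011323), which charges lysine transfer RNA for both cytosol and mitochondria from alternatively spliced mRNAs, had 46.6 and 50.1 FPKM in the E18 libraries, 49.6 and 47.0 in those of P5, then 21.1 and 21.8 in Adult. The E18 and P5 libraries overlapped, and Adult was 2.25-fold below P5 (log2 change -1.14, interval -1.37 to -0.90, adjusted p = 0.000229). Gars likewise serves both compartments from a single gene, as background knowledge has it.

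Falls of intermediate size were those of Rars (arginine), Lars (leucine) and Hars (histidine). Rars had 30.5 and 31.8 FPKM in the E18 libraries, 32.2 and 33.1 in those of P5, then 17.7 and 17.8 in Adult, a log2 change of -0.85 from P5 (adjusted p = 0.000621). Lars had 20.7 and 22.2 FPKM in the E18 libraries, 22.3 and 15.6 in those of P5, then 9.89 and 10.3 in Adult, a change of -0.83 (adjusted p = 0.00726) that was not called without Adult replicate 1. In both genes the Adult libraries were the lowest 2 of the 6, and for Lars the P5 libraries stood further apart than those of the other ages. Hars had 39.1 and 42.5 FPKM in the E18 libraries, 49.99 and 46.2 in those of P5, then 28.0 and 27.1 in Adult, a change of -0.78 (adjusted p = 0.0011). The other 11 called falls, Wars, Farsb, Eprs, Farsa, Aars, Cars, Dars, Qars, Tars, Sars and Yars, were between -0.64 and -0.45.

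Nars and Vars went against the group. Nars, which charges asparagine transfer RNA, had 48.1 and 53.1 FPKM in the E18 libraries, 64.8 and 57.1 in those of P5, then 64.8 and 64.7 in Adult. It did not share the Adult fall, and its Adult libraries reached the higher of the P5 libraries. Its log2 change from P5 to Adult was 0.09 (adjusted p = 0.511) and from E18 to Adult 0.35 (adjusted p = 0.0303), a call lost without any 1 of the E18 or Adult libraries. Vars (chr17:35000987-35016322), which charges valine transfer RNA, had 19.5 and 18.2 FPKM in the E18 libraries, 11.4 and 11.9 in those of P5, then 15.5 and 15.7 in Adult. The 3 ages did not overlap, and P5 was the lowest. Vars fell by 0.65 on the log2 scale from E18 to P5 (adjusted p = 0.022) and rose by 0.39 from P5 to Adult (adjusted p = 0.0201); the fall was not called when any library was left out, nor the rise without either E18 or either Adult library. Iars and Mars, with log2 changes of -0.20 and -0.05 from P5 to Adult, were the others not called.

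Calls among cytosolic synthetases were found in both structural classes of these enzymes and inside and outside their complex. From P5 to Adult 33.7% of all tested genes were called lower and 26.2% higher, with a median log2 change of -0.07. Of 10 class I genes 7 fell and 1 rose at that step, with a median of -0.55. Of 10 class II genes 9 fell and 0 rose, with a median of -0.57. Among 11 proteins of the multisynthetase complex, the assembly that holds several synthetases on the scaffold proteins and the non-member Eef1e1, 8 fell and 0 rose (median -0.55), and among the 12 cytosolic synthetases outside it 10 fell and 1 rose (median -0.56). Aimp1, the scaffold protein that also yields a secreted cytokine, had 37.6 and 40.2 FPKM in the E18 libraries, 39.0 and 36.0 in those of P5, then 26.0 and 27.3 in Adult (log2 change from P5 -0.48, adjusted p = 0.00803). Aimp2, the core scaffold, had 18.2 and 17.6 FPKM, then 20.9 and 13.9 FPKM, then 8.68 and 9.34 FPKM (log2 change -0.85, adjusted p = 0.00915). In both scaffold genes the Adult libraries lay below those of P5, as in 43.1% of all tested genes, and below those of E18. The call of Aimp2 was lost without Adult replicate 1. Aimp2 shares 1548 bases with Eif2ak1, which runs on the other strand, and no source used here says whether reads were counted by strand.

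**Figure D2:**
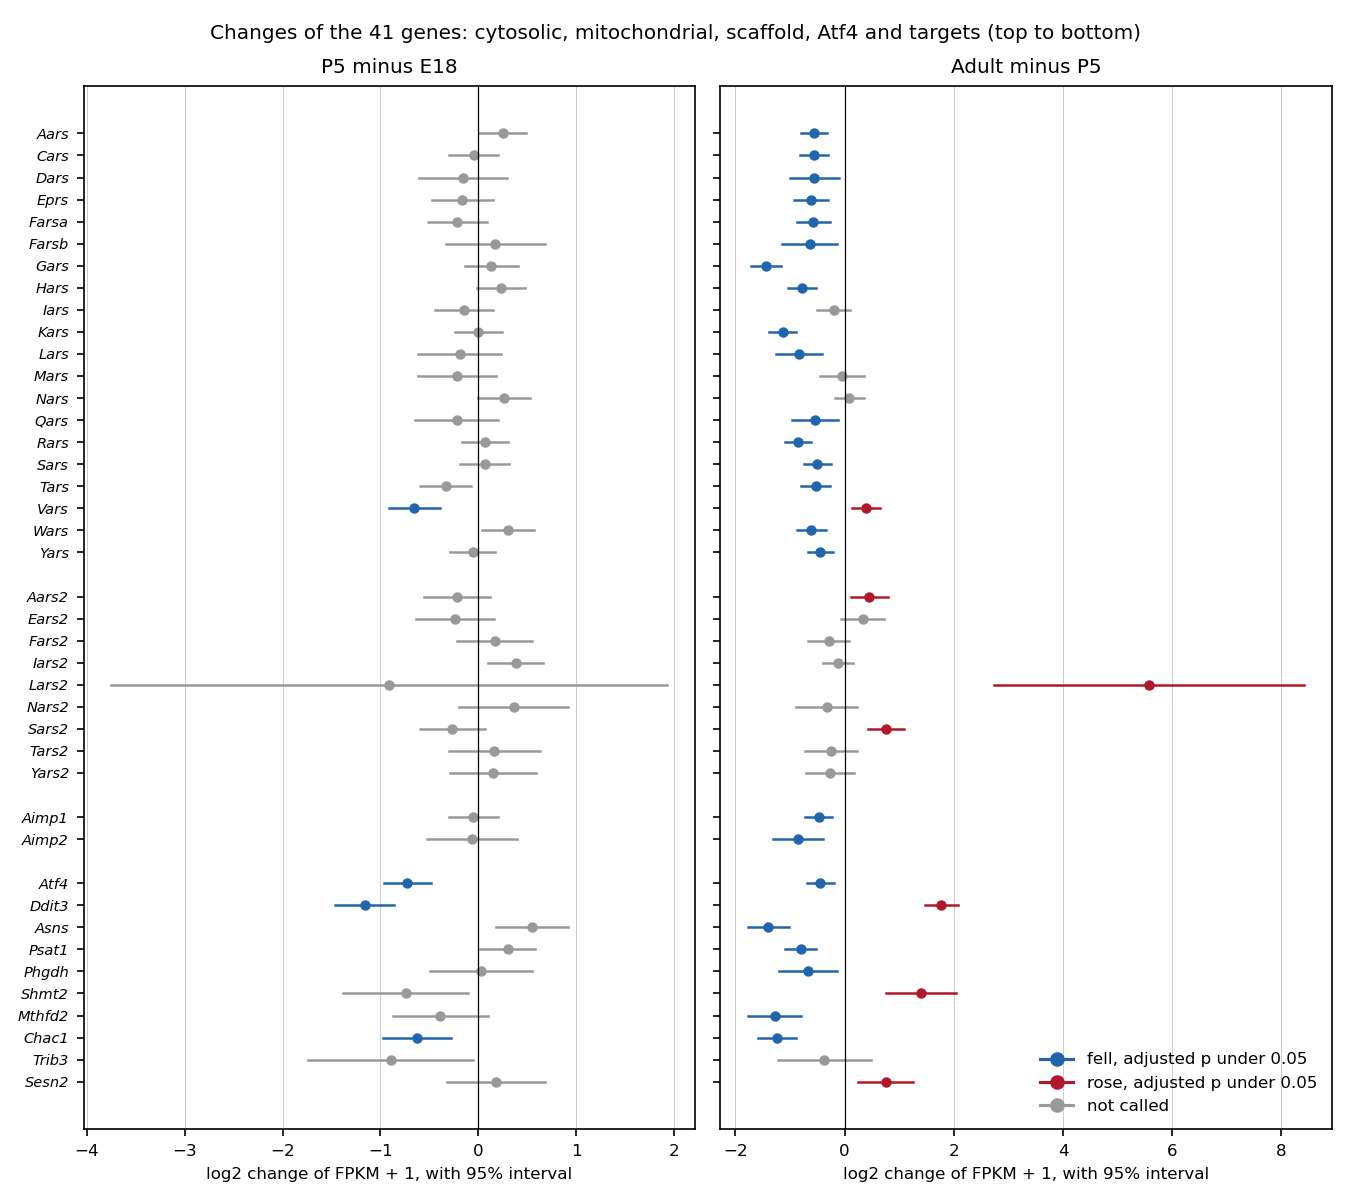
log2 change of FPKM + 1 with its 95% interval for each gene, P5 minus E18 at the left and Adult minus P5 at the right, blue where the gene fell, red where it rose and grey where it was not called. At the left 4 genes are blue and 0 red; at the right 24 are blue and 7 red, and of the mitochondrial synthetases 3 are red.

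The mitochondrial synthetases had lower levels and, in the deposited values, did not fall with the cytosolic ones. From P5 to Adult 0 of 9 fell, 3 rose (Aars2, Lars2 and Sars2) and 6 were not called. Among all tested genes 33.7% were called lower and 26.2% higher, and the share that rose is near the latter. At an unadjusted p under 0.05 by limma 0 of the 9 were lower, beside 5173 of all 14390 tested genes. The median log2 change was -0.12, close to that of all tested genes. It was -0.01 without P5 library a, -0.07 without library b, -0.05 without Adult replicate 2 and 0.06 with protein-coding transcripts only. With libraries rescaled to a common total it was -0.85, beside -0.76 for all tested genes. With libraries rescaled to the sum of protein-coding genes it was 0.19, beside 0.21 for all tested genes. Without Lars2, whose sum comes almost wholly from a single isoform, the other 8 summed to 72.4 and 69.9 FPKM in the E18 libraries, 87.4 and 72.1 in those of P5, then 80.05 and 71.2 in Adult. These sums overlapped between the ages. Sars2 (chr7:28741992-28753871), the mitochondrial serine enzyme, had 5.07 and 4.64 FPKM in the E18 libraries, 4.08 and 3.65 in those of P5, then 7.22 and 7.32 in Adult. It was lowest at P5 and highest in Adult, a log2 change from P5 of 0.77 (interval 0.44 to 1.10, adjusted p = 0.00366). Aars2, the mitochondrial alanine enzyme, had 7.71 and 7.84 FPKM, then 7.26 and 5.89 FPKM, then 9.64 and 9.05 FPKM, a change from P5 of 0.46 (adjusted p = 0.0306) that was lost without either E18 library, P5 library b or either Adult library. Ears2, Fars2, Iars2, Nars2, Tars2 and Yars2 had log2 changes between -0.33 and 0.33 from P5 to Adult and none was called.

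The ratio of the summed cytosolic to the summed mitochondrial level does not change when a library is rescaled by a single factor. It was 11.3 and 12.4 in the E18 libraries, 10.3 and 11.2 in those of P5, then 7.18 and 7.79 in Adult, with Lars2 left out. Both P5 libraries lay just below those of E18, and both Adult libraries were the lowest. Its log2 change from P5 to Adult was -0.52; an exact two-sided permutation test with 2 libraries against 2 cannot go below p = 0.333, the value it gave.

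Single calls moved with the scaling of the libraries. Rn7sk, a small nuclear RNA, was listed at 0.0001 FPKM, the table's stand-in for 0, in the younger libraries and at 186777 and 213874 FPKM in Adult. When each library was rescaled to a common total, 19 cytosolic synthetases fell and 0 rose from P5 to Adult, and 5 mitochondrial ones fell and 1 rose; all tested genes then had a median of -0.76, with 8603 genes lower and 1709 higher, where the deposited values gave 4843 and 3767. The rises of Sars2, Shmt2 and Sesn2 were not called on that scale. When libraries were rescaled to the sum of protein-coding genes, 6 cytosolic genes fell and 2 rose, 4 mitochondrial genes rose and 0 fell, and the median of all genes was 0.21, with 3347 lower and 5282 higher. The share of called genes that were higher moved likewise in the other comparisons, from 52.8% to between 60.7% and 76.0% from E18 to P5 under these 3 scalings, and from 42.4% to 20.1% (common total) and 61.9% (protein-coding genes) from E18 to Adult. With quantile normalization the cytosolic counts were 10 and 2, beside 4561 lower and 3768 higher among all tested genes. Relative to the median of all genes, the cytosolic median was -0.49 as deposited, -0.55 with the common total, -0.45 with protein-coding genes and -0.31 with quantile normalization, and the mitochondrial median was between -0.09 and 0.02. Nars, Vars and Aars2 had changes of -0.66, -0.32 and -0.22 from P5 to Adult with the common total, so their direction turned.

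**Figure D3:**
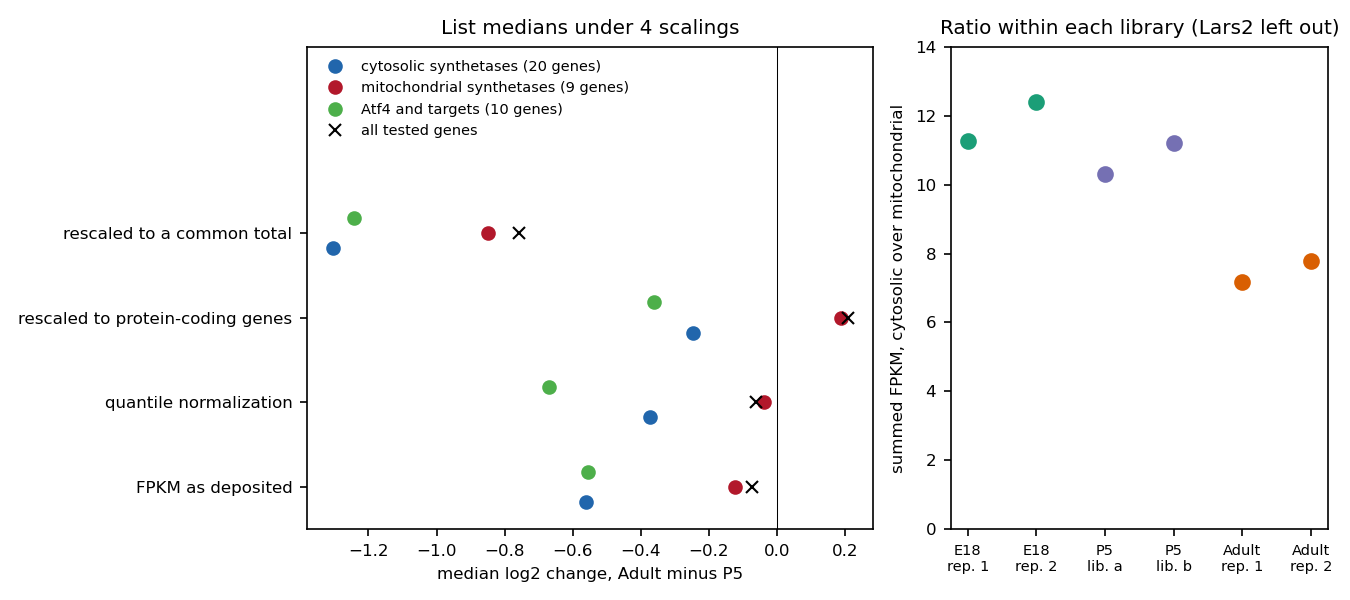
Left, median log2 change from P5 to Adult of 3 gene lists (points) and of all tested genes (crosses) under 4 scalings; right, the ratio of summed cytosolic to mitochondrial FPKM in each library, without Lars2. The cytosolic points stay left of the crosses under all 4 scalings while the mitochondrial points lie near them, and the Adult ratios of 7.18 and 7.79 are the lowest of the 6.

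Lars2, the mitochondrial leucine enzyme (chr9:123366927-123462666), had a summed level unlike that of the other mitochondrial genes. It was 289 and 193 FPKM in the E18 libraries, 457 and 33.7 in those of P5, then 10877 and 3327 in Adult. The P5 libraries differed from each other by several fold, as did the Adult libraries, and both Adult libraries stood above the rest. Of all Lars2 FPKM, 99.9% came from Lars2-202, a transcript annotated as a retained intron; the protein-coding Lars2-201 was between 0.866 and 1.97 FPKM in every library. Rn18s-rs5, a ribosomal RNA-related sequence, had 1900 and 1109 FPKM in the E18 libraries, 3072 and 415 in those of P5, then 0.0004 and 14745 in Adult, and its part in the Lars2-202 values was not tested. With Lars2-202 left out, an alternative chosen after seeing the data, Lars2 had 3.99 and 2.92 FPKM in the E18 libraries, 1.69 and 1.91 in those of P5, then 2.31 and 2.96 in Adult. The remaining isoforms were lowest at P5, and the log2 change from P5 to Adult was then 0.37 (adjusted p = 0.15) in place of 5.58 (interval 2.74 to 8.42, adjusted p = 0.00721), which was also not called without Adult replicate 1.

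**Figure D4:**
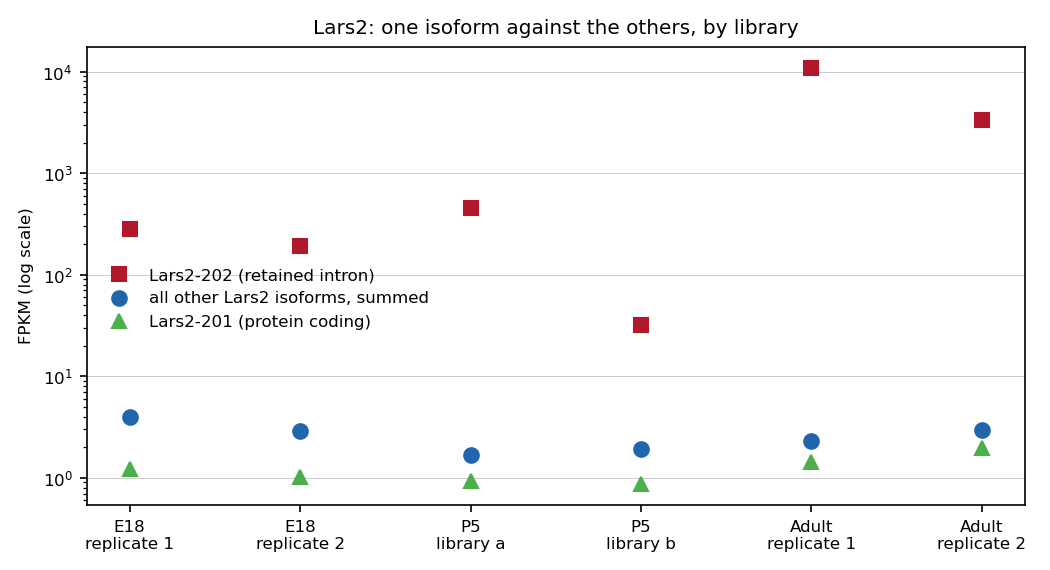
FPKM of the retained-intron isoform Lars2-202 (squares), of all other Lars2 isoforms summed (circles) and of the protein-coding Lars2-201 (triangles) in the 6 libraries, on a log axis. The squares run from 31.8 to 10875 FPKM, while the circles stay between 1.69 and 3.99 FPKM.

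Atf4 and its targets did not move as a block. From E18 to P5, 3 of the 10 (Atf4, Ddit3 and Chac1) fell and 0 rose, and Vars was the other fall among all 41 members. Of all tested genes 4.95% were called lower and 5.52% higher. At an unadjusted p under 0.05 by limma 7 of the 41 members were lower and 6 higher. At that threshold 2178 of all 14390 tested genes were lower and 2049 higher, shares near those of the members. The median log2 change of the 10 was -0.51, beside -0.05 for the cytosolic synthetases, 0.15 for the mitochondrial ones and -0.03 for all tested genes. The median of the 10 was -0.28 without E18 replicate 1 and -0.32 with protein-coding transcripts only. The mitochondrial median was -0.07 with P5 library a left out, 0.33 with library b left out and -0.15 with protein-coding transcripts only, and the cytosolic one was 0.04 without P5 library b and 0.08 on the common total or with protein-coding transcripts only, so neither held its sign. From P5 to Adult 6 fell (Atf4, Asns, Psat1, Phgdh, Mthfd2 and Chac1), 3 rose (Ddit3, Shmt2 and Sesn2) and Trib3 was not called, where 33.7% of tested genes were called lower and 26.2% higher; the share that rose is near that of all genes. The calls from E18 to P5 rest on few libraries: no member was called without E18 replicate 1, without E18 replicate 2 or without P5 library a, and without P5 library b Ddit3 stayed lower and Asns was called higher. Without either Adult library the 3 falls were Atf4, Ddit3 and Trib3.

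Atf4 itself (chr15:80255184-80257541) had 206 and 204 FPKM in the E18 libraries, 127 and 121 in those of P5, then 96.6 and 85.3 in Adult. The ages did not overlap and the level went down at each step. The log2 change was -0.73 from E18 to P5 (interval -0.97 to -0.48, adjusted p = 0.015) and -0.44 from P5 to Adult (adjusted p = 0.00987). The second step was no longer called with quantile normalization or scaling to protein-coding genes. Between E18 and Adult Atf4 was 2.25-fold lower (log2 change -1.17, adjusted p = 0.000191).

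Ddit3 (chr10:127290774-127296288) encodes CHOP, a transcription factor tied to cell death under prolonged stress. It had 20.3 and 19.3 FPKM in the E18 libraries, 9.12 and 7.55 in those of P5, then 30.004 and 31.5 in Adult. P5 was lowest and Adult highest, with no overlap. The log2 change was -1.16 from E18 to P5 (adjusted p = 0.00958) and 1.77 from P5 to Adult (interval 1.47 to 2.08, adjusted p = 0.000123), a 3.69-fold higher mean. The ratio of Ddit3 to Atf4 within a library was 0.0988 and 0.0944 in the E18 libraries, 0.072 and 0.0626 in those of P5, then 0.311 and 0.37 in Adult. The ratio was highest in Adult and lowest at P5. Ddit3 and Mars overlap by 68 bases on opposite strands.

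Amino acid synthesis genes took different courses. Asns (chr6:7675169-7693254), which makes asparagine, had 44.2 and 46.4 FPKM in the E18 libraries, 77.1 and 57.6 in those of P5, then 25.8 and 23.7 in Adult. P5 was highest and Adult lowest, with no overlap; the rise to P5 was not called (log2 change 0.55, adjusted p = 0.0732), and the change to Adult was -1.39 (interval -1.76 to -1.02, adjusted p = 0.000527). Relative to Atf4 in the same library, Asns was 0.215 and 0.227 in the E18 libraries, 0.608 and 0.478 in those of P5, then 0.267 and 0.278 in Adult. Psat1, of the serine pathway, had 21.3 and 18.3 FPKM, then 24.1 and 24.8 FPKM, then 13.9 and 13.3 FPKM (log2 change from P5 to Adult -0.80, adjusted p = 0.00168). Like Asns it was highest at P5. Phgdh, the first enzyme of that pathway, was low throughout, between 0.829 and 2.56 FPKM, and its fall from P5 to Adult (log2 change -0.67, adjusted p = 0.0366) was lost without either P5 or either Adult library.

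The mitochondrial folate enzymes Shmt2 and Mthfd2, which hand on the carbon units taken from serine, went opposite ways. Shmt2 had 10.3 and 5.33 FPKM in the E18 libraries, 4.11 and 3.996 in those of P5, then 12.4 and 12.2 in Adult. Its E18 libraries stood far apart, and both Adult libraries were above all others. The log2 change from P5 to Adult was 1.39 (interval 0.76 to 2.03, adjusted p = 0.00466). Mthfd2 had 13.4 and 10.8 FPKM in the E18 libraries, 10.8 and 7.42 in those of P5, then 3.13 and 3.08 in Adult. Both Adult libraries were well below all younger ones; the change from P5 was -1.28 (interval -1.76 to -0.79, adjusted p = 0.00217).

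Of the genes that act on the stress response itself, Chac1 fell furthest from E18 to Adult. Chac1 (chr2:119351229-119354381), which degrades glutathione, had 9.06 and 7.93 FPKM in the E18 libraries, 5.11 and 5.17 in those of P5, then 1.59 and 1.62 in Adult. The ages did not overlap. Its log2 change was -0.63 from E18 to P5 (adjusted p = 0.043) and -1.24 from P5 to Adult (adjusted p = 0.000626), and it was 5.3-fold lower in Adult than at E18. The call from E18 to P5 was lost on the common total, with quantile normalization and on protein-coding scaling. That call was also lost with a filter at a mean of 5 FPKM and with any library left out. Sesn2, an inhibitor of mTORC1 that senses leucine, had 3.59 and 2.81 FPKM, then 2.98 and 4.62 FPKM, then 6.86 and 7.13 FPKM. E18 and P5 overlapped and Adult was higher, by a log2 of 0.76 from P5 (adjusted p = 0.0202, lost without P5 library a or either Adult library). Trib3, a pseudokinase that inhibits Atf4 and CHOP, had 3.16 and 3.07 FPKM, then 1.25 and 1.16 FPKM, then 1.49 and 0.176 FPKM. Its Adult libraries stood far apart, and its change was called from E18 to Adult only (log2 change -1.27, adjusted p = 0.0201), not without either E18 library.

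**Figure D5:**
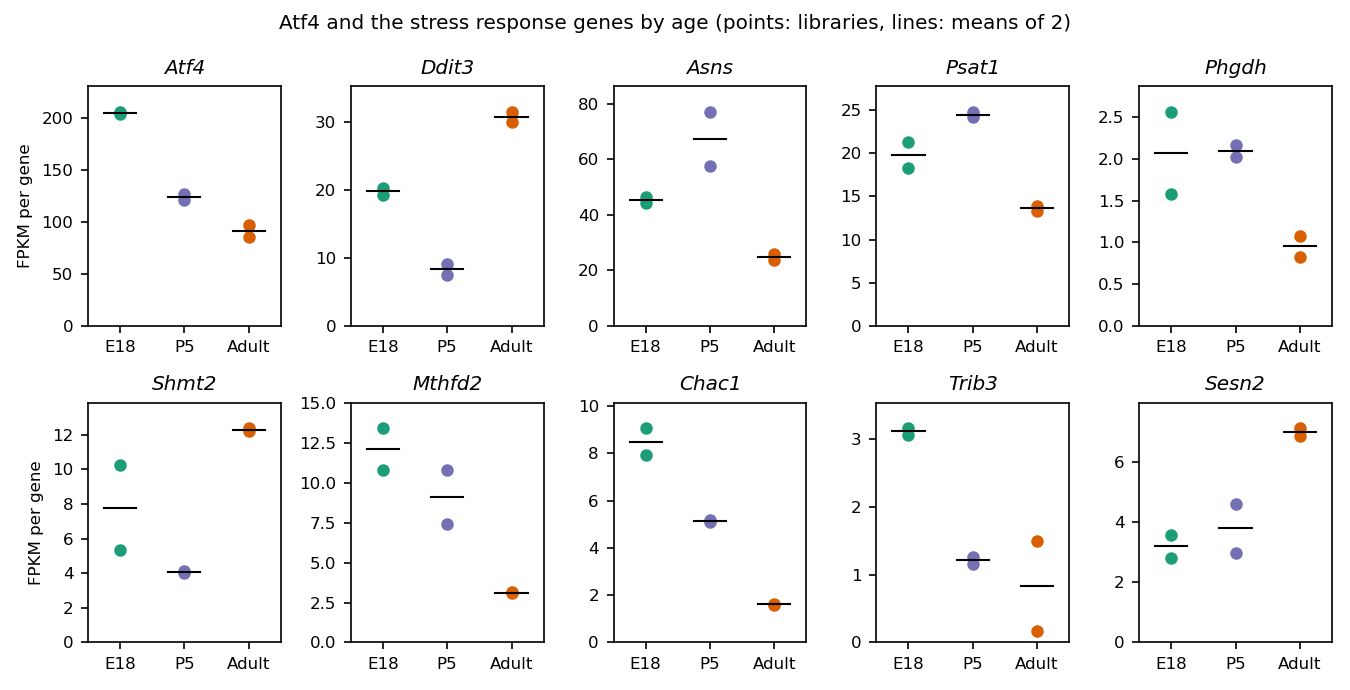
FPKM of Atf4 and 9 stress response genes at E18, P5 and Adult on linear axes from 0 (points: libraries, lines: means of 2). Atf4 and Chac1 step down at each age, Ddit3 is lowest at P5 and highest in Adult, and Asns is highest at P5 and lowest in Adult.

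Across the longest interval, E18 to Adult, 14 cytosolic synthetases fell and 1 rose (Nars), 0 mitochondrial ones fell and 2 rose (Lars2 and Sars2), both scaffold proteins fell, and of the Atf4 list 7 fell and 2 rose (Ddit3 and Sesn2), where 34.4% of tested genes were called lower and 25.3% higher. The comparison shares its libraries with the other 2. Medians were -0.58 for cytosolic synthetases, 0.09 for mitochondrial ones, -0.74 for the Atf4 list and -0.11 for all tested genes. The mitochondrial median lay between 0.04 (without E18 replicate 2) and 0.19 (without Adult replicate 1) with a library left out, and was -0.41 on the common total, -0.01 with quantile normalization and 0.37 on protein-coding scaling. The cytosolic and Atf4 medians were -1.19 and -1.31 on the common total, and -0.22 and -0.46 on protein-coding scaling. Without E18 replicate 2 no member was called higher, without E18 replicate 1 the falls in the Atf4 list numbered 4 and no mitochondrial synthetase was called higher, and without Adult replicate 1 or 2 the members called higher numbered 2. Of the 28 members called in this comparison, 11 kept their call in every alternative run: Eprs, Farsa, Gars, Kars, Lars, Rars, Tars, Atf4, Asns, Mthfd2 and Chac1. Of 31 members called from P5 to Adult, 10 did: Gars, Hars, Kars, Rars, Wars, Ddit3, Asns, Psat1, Mthfd2 and Chac1.

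Among members whose promoter window held TGATGNAA, 6 of 8 fell and 0 rose from P5 to Adult, with a median log2 change of -0.55; among the 26 members with a window but without those letters, 13 fell and 6 rose, with a median of -0.38. Asns and Chac1 were the called members of the Atf4 list with the letters, and Iars and Trib3 the members with the letters that were not called. Of all tested genes 33.7% were called lower and 26.2% higher, with a median of -0.07. All mitochondrial synthetases were in the second group. Among cytosolic synthetases with a window, 4 of 5 with the letters fell (median -0.53) and 7 of 8 without them fell (median -0.56).

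Isoforms showed which transcripts carried the sums. The table held 160 isoforms of the members, 112 of them tested, and 9 members had a single isoform. From P5 to Adult 32 isoforms fell and 6 rose, where 24.1% of all tested isoforms were called lower and 19.2% higher. The 6 were Ddit3-201, Lars2-202, Sars2-201, Sesn2-201, Shmt2-201 and Vars-213. Vars-213, a short protein-coding form, had 0.886 and 0.576 FPKM in the E18 libraries, 0.166 and 0.338 in those of P5, then 2.61 and 2.58 in Adult (log2 change from P5 1.53, adjusted p = 0.0035). It was highest in Adult and lowest at P5. The main coding form Farsa-201 of the phenylalanine enzyme fell more than the sum of its gene: it had 19.8 and 21.8 FPKM, then 20.7 and 17.9 FPKM, then 6.92 and 7.65 FPKM (log2 change from P5 -1.29, adjusted p = 0.00142), against -0.57 for the Farsa sum.

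From E18 to P5, 3 isoforms of members fell and 0 rose, where 0.824% of all isoforms were called lower and 0.804% higher. They were Atf4-201, Ddit3-201 and Aars-205, a retained-intron form of the alanine enzyme. Aars-205 had 4.11 and 4.16 FPKM in the E18 libraries, 1.197 and 1.29 in those of P5, then 0.971 and 0.714 in Adult (log2 change from E18 to P5 -1.20, adjusted p = 0.0491), while the coding form Aars-201 had 42.5 and 46.1 FPKM, then 64.1 and 59.7 FPKM, then 40.2 and 42.0 FPKM. So the retained-intron form was highest at E18 and the coding form at P5. Annotated protein-coding isoforms made up 82.0% and 84.2% of the cytosolic synthetase sum in the E18 libraries, 89.3% and 86.5% in those of P5, then 83.3% and 84.6% in Adult. The share differed between genes. Over the libraries it was 17.0% to 28.3% in Qars, 31.5% to 63.6% in Farsa and 38.9% to 57.5% in Tars. In Dars, Hars, Kars, Lars and Nars it was 100%. The fall of Qars from P5 to Adult was not called with protein-coding transcripts only. From E18 to Adult 42 isoforms fell and 6 rose, where 26.8% of all isoforms were called lower and 17.9% higher. Cufflinks estimates how reads divide between overlapping forms, and none of the 3 calls from E18 to P5 held when any 1 library was left out.

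Other genes around these pathways were counted from lists of the same pathways. Of 12 further mitochondrial charging genes, 2 fell (Hars2 and Mars2) and 1 rose (Vars2) from P5 to Adult, with a median log2 change of -0.14. All tested genes had a median of -0.07, with 33.7% called lower and 26.2% higher. Hars2, the mitochondrial histidine enzyme, had 22.1 and 22.8 FPKM in the E18 libraries, 19.8 and 20.9 in those of P5, then 12.5 and 12.6 in Adult (log2 change from P5 -0.66, adjusted p = 0.00223), and thus fell beside Hars; the 2 genes overlap by 198 bases on opposite strands. From E18 to Adult, Pars2, Qrsl1 and Vars2 rose (log2 changes 0.75, 0.59 and 0.51) and Hars2 and Cars2 fell (-0.79 and -0.64). Gatc, a subunit of the enzyme that completes mitochondrial glutamine transfer RNA, was not called in any comparison, with 12.7 to 16.2 FPKM.

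Of 8 tested amino acid transporters of the Atf4 program, 1 fell (Slc1a4) and 2 rose (Slc6a9 and Slc38a1) from P5 to Adult. Of all tested genes 33.7% were called lower and 26.2% higher, so the share of transporters that rose is near that of all genes. Slc1a4, a carrier of serine and alanine, had 19.6 and 21.3 FPKM in the E18 libraries, 23.8 and 17.6 in those of P5, then 6.24 and 6.61 in Adult (log2 change from P5 -1.53, adjusted p = 0.000452). Slc38a2, a glutamine carrier induced by amino acid shortage, had 84.8 and 84.9 FPKM in the E18 libraries, 38.0 and 49.7 in those of P5, then 30.5 and 35.7 in Adult. It was the transporter called lower from E18 to P5 (log2 change -0.95, adjusted p = 0.0212). Slc6a9, a glycine carrier that is also in the list of amacrine markers, went from between 2.95 and 4.15 FPKM to 225 and 167 FPKM in Adult. Its own level is part of the sum of amacrine markers, and the part of amacrine transcripts in its rise was not tested.

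Of 11 tested enzymes of serine, glycine, proline and one-carbon metabolism, 4 fell (Aldh18a1, Pycr1, Aldh1l2 and Gpt2) and 6 rose from P5 to Adult. Their median log2 change was 0.56, beside -0.07 for all tested genes. Since 33.7% of all tested genes were called lower and 26.2% higher, the share that fell is near that of all genes. Aldh18a1 and Pycr1 make proline; Aldh18a1 had 20.4 and 20.2 FPKM in the E18 libraries, 15.2 and 14.3 in those of P5, then 5.25 and 5.36 in Adult (log2 change from P5 -1.32, adjusted p = 0.000203). Got1, the cytosolic aspartate aminotransferase, rose at both steps, from 47.0 and 52.7 FPKM through 90.0 and 78.1 FPKM to 173 and 173 FPKM (log2 changes 0.74 and 1.04, adjusted p = 0.019 and 0.000515). Mthfd1, the cytosolic folate enzyme, had 2.58 and 1.79 FPKM, then 3.34 and 2.98 FPKM, then 7.32 and 8.05 FPKM, and rose from P5 to Adult (log2 change 1.06, adjusted p = 0.00282).

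Of 12 tested further stress genes, 4 fell from E18 to P5 (Ddit4, Ppp1r15a, Stc2 and Herpud1) and 0 rose. Their median log2 change was -0.39, beside -0.03 for all tested genes, of which 4.95% were called lower and 5.52% higher. From P5 to Adult 0 of the 12 fell and 5 rose (Vldlr, Stc2, Herpud1, Sesn1 and Sesn3), with a median of 0.30. There all tested genes had a median of -0.07, with 33.7% called lower and 26.2% higher. At an unadjusted p under 0.05 by limma, 1 of the 12 was higher from E18 to P5, beside 2049 of all 14390 tested genes. From P5 to Adult 0 were lower at that threshold, beside 5173 of all tested genes. Herpud1, of protein disposal at the endoplasmic reticulum, had 67.2 and 65.5 FPKM in the E18 libraries, 36.7 and 39.6 in those of P5, then 49.8 and 55.3 in Adult. Like Ddit3 it was lowest at P5, but its Adult libraries stayed below those of E18. Ppp1r15a, the phosphatase subunit that reverses eIF2 phosphorylation, had 20.4 and 20.8 FPKM, then 12.4 and 9.14 FPKM, then 9.06 and 11.3 FPKM (log2 change from E18 to P5 -0.89, adjusted p = 0.0332). Sesn1 and Sesn3, relatives of Sesn2, rose from P5 to Adult by 0.83 and 0.82 on the log2 scale (adjusted p = 0.00279 and 0.00187).

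Of 8 tested genes upstream of Atf4, Impact, an inhibitor of the eIF2 kinase Gcn2, changed most: 12.9 and 13.2 FPKM in the E18 libraries, 18.4 and 20.4 in those of P5, then 169 and 191 in Adult (log2 change from P5 3.15, adjusted p = 2.42e-05). Every age lay above the one before. Eif2s1, the eIF2 subunit that is phosphorylated, had 24.1 and 25.8 FPKM, then 32.5 and 21.9 FPKM, then 11.6 and 10.5 FPKM, a log2 change from P5 of -1.20 (adjusted p = 0.0023). The kinase genes Eif2ak1, Eif2ak3 and Eif2ak4 were not called in any comparison, with log2 changes between -0.34 and 0.10. Of 14 endoplasmic reticulum stress genes, 3 fell (Pdia4, Pdia6 and Manf) and 4 rose (Dnajb9, Atf6, Sdf2l1 and Hyou1) from P5 to Adult. Their median log2 change was 0.07, beside -0.07 for all tested genes. Since 33.7% of all tested genes were called lower and 26.2% higher, the share that rose is near that of all genes. Dnajb9, a chaperone partner of the abundant Hspa5, had 14.7 and 13.3 FPKM in the E18 libraries, 8.18 and 9.28 in those of P5, then 25.4 and 28.3 in Adult (log2 change from P5 1.52, adjusted p = 0.000204). Its order of ages was that of Ddit3.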

How the data were processed

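The authors deposited FPKM (fragments per kilobase of transcript and library size) of 50829 isoforms in 6 libraries. Per the submitters' processing notes, HISAT2, Cufflinks, Cuffdiff and mm10 were used; versions are not given in the sources used here, nor is any scaling between libraries. The value 0.0001 stands for 0, and each isoform reached 1.00 FPKM in at least 1 library. The P5 columns share one header, so those libraries are called a and b. Another 10 columns of values were not used. FPKM carry no counts, and low values fall on no common steps, so depth is unknown and the number of libraries limits the precision.

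Isoform FPKM were summed per symbol, and log2(FPKM + 1), a scale that understates changes of low genes, was modelled across all 6 libraries by limma (version 3.58.1, under R 4.3.3) with moderated variances that follow a trend in level. Genes and isoforms with a mean of at least 1 FPKM were tested, 14390 genes and 34941 isoforms, with 3 residual degrees of freedom. Tests were two-sided and Benjamini-Hochberg adjusted over all features per comparison; called means an adjusted p under 0.05, and every adjusted p is from limma. Every member is named; of each other list, the rule takes the 4 called genes of lowest p plus the 2 of highest level, and others are named where a count is 5 or fewer. Members and lists were chosen with earlier results of these data known. Replicate numbers were not taken as pairs. Positions are from the GRCm38 annotation. The matches in the window of 1 further member are not reported here.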

Additional observations from a re-analysis of the deposited data

How the results depend on the processing

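The alternatives covered pseudocount, filter, scaling, isoforms counted, variance model, a replicate block and each library left out; protein-coding transcripts only, and Lars2 without its retained-intron isoform, were chosen after seeing the data. The 10 calls (P5 to Adult) and 11 calls (E18 to Adult) named above as kept held throughout; 0 of 4 from E18 to P5 did. The depth behind the values is unknown, and causes of the shifts below were not tested.

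On the common total, the direction between P5 and Adult turned for Nars (-0.66), Vars (-0.32) and Aars2 (-0.22), and between E18 and Adult for Nars (-0.26) and Sars2 (-0.034). On protein-coding scaling Aars turned from E18 to Adult (0.048), as did Lars2 without its retained-intron isoform (-0.29).

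From E18 to P5, the common total and protein-coding transcripts each gave 2 members higher, 1 of them cytosolic and 1 of the Atf4 list. Among all tested genes 1479 of 14390 were higher on the common total, and 867 of 11519 with protein-coding transcripts. With only the 4 libraries compared, 696 genes were called and 0 cytosolic synthetases fell. Called isoforms of members numbered 5 on the common total, 1 with pseudocount 0.1, without a filter or on protein-coding scaling, and 0 with equal medians, without the variance trend or with only 4 libraries.

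From P5 to Adult, the common total gave 2 members higher, 0 cytosolic higher, 5 mitochondrial lower and 1 higher, 1 of the Atf4 list higher and 60 isoforms. Protein-coding scaling gave 11 members lower, with 6 cytosolic lower and 2 higher, beside 3347 of all tested genes lower and 5282 higher. Quantile normalization gave 10 cytosolic synthetases lower and 2 higher, beside 4561 and 3768 of all tested genes. With annotated isoforms only, or only 4 libraries, 0 cytosolic synthetases rose.

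From E18 to Adult, the common total gave 1 member higher, 0 cytosolic higher, 3 mitochondrial lower and 1 higher, and 0 of the Atf4 list higher. On that scale 8138 of all 14390 tested genes were called lower and 2047 higher. Protein-coding scaling gave 13 members lower and 8 higher, 7 cytosolic lower and 4 mitochondrial higher. There 3323 of all 14390 tested genes were called lower and 5396 higher. Without the variance trend 0 cytosolic synthetases rose. The mitochondrial rises numbered 1 with protein-coding transcripts, without the Lars2 isoform, with robust variances and with the replicate block. A mean of at least 5 FPKM left 1 of the Atf4 list higher and 27 isoforms.

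With a library left out, calls from E18 to P5 ranged from 10 to 642 genes, 0 to 3 members lower and 0 to 1 higher, 0 cytosolic lower, 0 to 3 of the Atf4 list lower and 0 to 1 higher, and 0 isoforms. Between P5 and Adult the ranges were 3 to 6 members higher, 0 to 1 cytosolic and 1 to 3 mitochondrial higher, and 27 to 34 isoforms. From E18 to Adult they were 0 to 5 members higher, 10 to 16 cytosolic lower and 0 to 1 higher, 0 to 2 mitochondrial higher, 4 to 6 of the Atf4 list lower and 0 to 3 higher, and 17 to 50 isoforms.

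The labels tie no replicate numbers together, and the P5 columns carry none, so a replicate block could be fitted from E18 to Adult alone. It gave 8056 genes, 23 members lower, 4 higher and 41 isoforms; Sars2 and Phgdh lost their call and Farsb gained one. Deviations of same-numbered libraries had a correlation of 0.0183 over 14390 genes.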
